A study of Mus musculus with 6 samples.

Results

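Ubiquitin-conjugating enzymes, or E2 enzymes, carry ubiquitin from an activating enzyme (E1) to a target protein chosen by a ligase (E3). The E2 holds ubiquitin on a catalytic cysteine within a compact domain, so most E2 reading frames are short. Some E2s carry ubiquitin-like proteins (such as NEDD8 or ISG15) in place of ubiquitin, and a few relatives have the fold but lack the cysteine and act as partners of a true E2. The mouse genes of the family have symbols that begin with Ube2. They were taken as the annotated symbols made of Ube2, a letter and an optional suffix of letters or single digits, leaving out pseudogenes, non-coding genes and provisional genes. Of 40 symbols with that form, 37 were protein-coding genes and were kept as the family, out of 51912 genes matched in all. The 3 left out were Ube2d4 and Ube2nl, both annotated as processed pseudogenes, and Ube2uos, an antisense transcript.

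The messages were measured at 2 steps of RAPIDASH, a ribosome purification, in E14 cells, which are mouse embryonic stem cells grown in serum and LIF on gelatin. The resin eluates (3 libraries) hold poly(A) RNA from material that was pelleted through a sucrose cushion and then bound to and eluted from a cysteine-charged resin. The cushion pellets (3 libraries) hold poly(A) RNA from the pelleted material without the resin step. Both groups came from unmodified cells given cycloheximide (100 µg/mL for 3 minutes), which stalls ribosomes on their messages, so no group shows the cells without the drug and none shows total cellular RNA. Whether the samples of a group are separate cultures is not stated, so the p-values describe variation among these particular samples, which may be technical.

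The eluates held 1.164e+07, 1.126e+07 and 1.002e+07 estimated read counts and the pellets 8.439e+06, 1.044e+07 and 7.838e+06. Libraries of the same group had log CPM values with correlations of 0.978 to 0.987 over genes, and an eluate and a pellet had 0.94 to 0.967. Pellet 1 stood apart from the other pellets, with a first principal component (65.7% of the variance) of -19.1, against 30.5 to 41.8 in the eluates and -42.9 and -45.3 in pellets 2 and 3. Results that turn on that library are given with and without it. All 10 markers of embryonic stem cells were detected, with summed levels of 11824 to 12184 CPM (counts scaled to a common library total) in eluates and 9717 to 10024 in pellets. Summed markers of fibroblasts, of which Postn was at 0, were 18.1 to 22.6 CPM in eluates and 12.4 to 14.5 in pellets. Those of primitive endoderm, mesoderm and neuroectoderm were at most 22.6 CPM in any library, and their part in the results was not tested.

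Several family members are pairs of close relatives whose proteins are nearly the same while their messages differ in sequence. The coding stretches below are shown because the members of each pair behaved differently in the eluates (values follow). Each stretch is 60 bases of the same aligned region, taken from GENCODE mouse release 21 on GRCm38, and capitals mark the bases that differ between the members of a pair. In Ube2a and Ube2b the stretch codes for residues 82 to 101, around the catalytic cysteine (codon 88). The residues are identical at 20 of 20 positions while 10 bases differ.
Ube2a: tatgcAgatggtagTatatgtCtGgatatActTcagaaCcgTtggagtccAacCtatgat
Ube2b: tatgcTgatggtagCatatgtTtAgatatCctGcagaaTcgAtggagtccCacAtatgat
The Ube2a stretch lies in exon 5 of 6 at chrX:36882601-36882660 (plus strand) and the Ube2b stretch in exon 5 of 6 at chr11:51988639-51988698 (minus strand). Their GC content is the same, at 40%. The next pair has no catalytic cysteine. Its stretch codes for 20 identical residues, from codon 9 in Ube2v1 and codon 7 in Ube2v2, with 9 bases that differ.
Ube2v1: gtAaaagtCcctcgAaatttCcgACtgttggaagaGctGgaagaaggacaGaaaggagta
Ube2v2: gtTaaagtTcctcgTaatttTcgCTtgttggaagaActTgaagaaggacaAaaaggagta
These lie in exon 2 of 4 at chr2:167617916-167617975 and in exon 2 of 4 at chr16:15581146-15581205, both on the minus strand. The stretch is 45% GC in Ube2v1 and 36.7% GC in Ube2v2. In the last pair the proteins are further apart, with 14 of 20 residues identical and 21 bases that differ, and the stretch again spans the catalytic cysteine (codon 89 in Ube2g2 and codon 90 in Ube2g1).
Ube2g2: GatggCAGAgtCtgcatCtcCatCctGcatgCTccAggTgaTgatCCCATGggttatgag
Ube2g1: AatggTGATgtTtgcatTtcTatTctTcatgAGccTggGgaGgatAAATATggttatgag
These lie in exon 5 of 6 at chr10:77643477-77643536 and in exon 4 of 6 at chr11:72677713-72677772, both on the plus strand, with 53.3% GC in Ube2g2 and 38.3% GC in Ube2g1.

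As a whole, the family took a larger share of the eluate libraries. Its summed counts were 0.506%, 0.522% and 0.533% of all matched counts in eluates 1 to 3, against 0.438%, 0.413% and 0.405% in pellets 1 to 3. Every eluate was above every pellet, with means of 0.52 ± 0.0138% in eluates and 0.419 ± 0.0171% in pellets (SD, n = 3 each). The difference was 0.102 percentage points, and 0.111 without pellet 1. A two-sided exact permutation test gave p = 0.1, the smallest value that 3 against 3 allows.

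Of the 37 genes, 32 had enough counts to be tested, and most moved by modest amounts. Each change below is a log2 fold change (eluate over pellet, ± SE) from edgeR's quasi-likelihood test, and a gene was called where its p, adjusted over all 13231 genes tested, was under 0.05. By this rule 17 members (53.1%) were higher in the eluates and 4 (12.5%) were lower, against 24.5% and 28.2% of all tested genes (52.7% in either direction), and 11 members were not called. The median member was at 0.27, against 0.0035 for all genes, and the members ranged from -0.91 to 0.81. None reached a log2 change of 1 in either direction. The libraries are bulk pools, and a change compares a message's level after the resin step with its level in the pellet. It does not show how many cells held a message or how much each held. Every eluate was above every pellet for 18 members and below every pellet for 3, against 29.1% and 31.2% of all genes, and 11 members overlapped. Without pellet 1 the counts were 18 higher and 4 lower, against 27.5% and 29.9% of all genes. Without both libraries numbered 3 they were 7 higher and 1 lower, against 14.5% and 19.8% of all genes. With upper-quartile scaling, which moved the median of all genes by 0.09, they were 22 higher and 1 lower, against 30.6% and 24.1% of all genes.

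**Figure D1:**
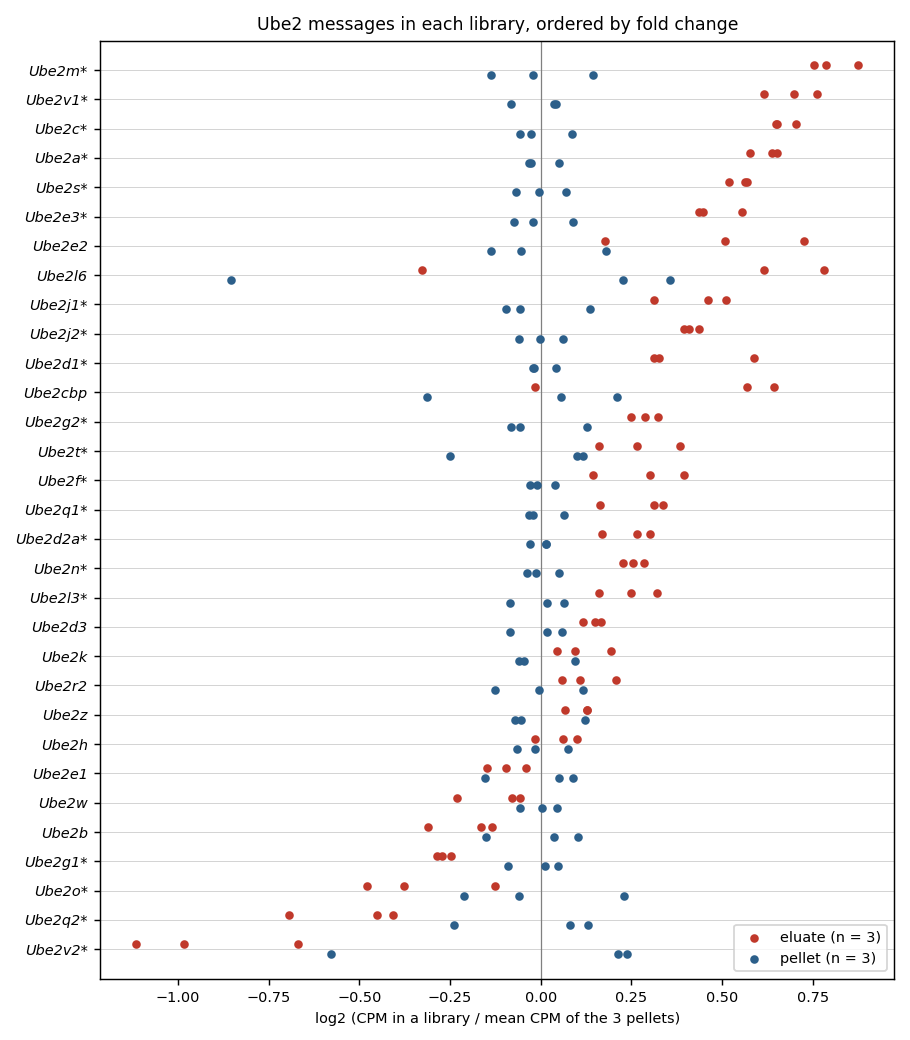
Level of 31 of the 32 tested Ube2 messages in each library. The x axis is the log2 ratio of a library's CPM to the mean CPM of the 3 pellets, each row is a gene, red points are the 3 eluates and blue points the 3 pellets, and an asterisk marks a called gene. The eluates lie right of the pellets in the upper rows, led by Ube2m at a fitted change of 0.81, and left of them for Ube2v2 at -0.91.

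The partners of the anaphase-promoting complex (APC/C), the ligase that drives cells out of mitosis, both rose. By TPM averaged over the 6 libraries they were also the most abundant members. Ube2s, which extends ubiquitin chains on APC/C targets, was at 912 ± 15.2 TPM in eluates and 687 ± 68 TPM in pellets (SD, n = 3 each; TPM is scaled for transcript length). In counts it stood at 971, 1002 and 1005 CPM in eluates 1 to 3 and at 711, 676 and 647 CPM in pellets 1 to 3. The groups did not overlap, and its change was 0.55 ± 0.063 (adjusted p = 3.87e-06). Ube2s alone made up 19.2 ± 0.113% of the family's counts in eluates and 16.1 ± 0.707% in pellets (SD, n = 3 each). Ube2c, which puts the first ubiquitin on APC/C targets, was at 544 ± 20.3 TPM in eluates and 364 ± 45.7 TPM in pellets, second to Ube2s in eluates but below Ube2d3 (382 ± 18.3 TPM) in pellets, by less than its own SD. It had 413, 412 and 428 CPM in eluates and 279, 258 and 253 CPM in pellets, again without overlap, for a change of 0.67 ± 0.064 (adjusted p = 6.92e-07). The Ube2s call ended in a fit with each library's smooth trend in GC content and transcript length over all genes removed, called the trend-removed fit from here on. There Ube2s was at -0.13 (adjusted p = 0.0653), while Ube2c was at 0.29 (adjusted p = 8.69e-05).

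Among E2s that carry ubiquitin-like proteins, Ube2m and Ube2f rose, and Ube2l6, with under 2 CPM in every library, was not called. Ube2m, the NEDD8 E2 for most cullins, had the highest fold change of the family. It had 135, 127 and 124 CPM in eluates and 81.3, 66.9 and 72.5 CPM in pellets. The groups were far apart relative to their spread, with a change of 0.81 ± 0.082 (adjusted p = 1.12e-06). Ube2f, the NEDD8 E2 for Cul5, had 48.5, 54.1 and 57.7 CPM in eluates and 43, 45.1 and 43.6 CPM in pellets. Its lowest eluate lay just above its highest pellet, and its change was 0.28 ± 0.089 (adjusted p = 0.0146). That call was lost without eluate 2 (adjusted p = 0.0523) and without eluate 3 (adjusted p = 0.0782).
Ube2l6, the ISG15 E2, was barely detected, at 1.57, 0.728 and 1.4 CPM in eluates and 1.17, 0.506 and 1.07 CPM in pellets. Its groups overlapped, with a change of 0.46 ± 0.45 (adjusted p = 0.413, limma voom 95% interval -0.54 to 1.42). In the trend-removed fit Ube2m was at 0.05 (adjusted p = 0.565), which ended its call, and Ube2f at 0.35 (adjusted p = 0.000922).

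Ube2n and its partners split in direction. Ube2n (Ubc13) builds chains that serve signalling and DNA damage tolerance rather than degradation, and it needs a partner without a catalytic cysteine, Ube2v1 or Ube2v2. Ube2n had 262, 273 and 267 CPM in eluates and 218, 232 and 222 CPM in pellets. Its groups did not overlap, and it rose by 0.25 ± 0.062 (adjusted p = 0.0031). Ube2v1 rose by 0.69 ± 0.067 (adjusted p = 7.19e-07), with 357, 378 and 395 CPM in eluates and 239, 240 and 220 CPM in pellets. Ube2v2 went the other way, with 50.6, 62.9 and 46.2 CPM in eluates and 67, 118 and 116 CPM in pellets.
Every Ube2v2 eluate was below every pellet, but pellet 1 lay closer to the eluates than to the other pellets. Its change of -0.91 ± 0.27 (adjusted p = 0.0424) was the lowest of the family. The call was lost without eluate 1 (adjusted p = 0.106), eluate 3 (0.0976), pellet 2 (0.124) or pellet 3 (0.102). It was kept without pellet 1 or eluate 2, and lost without both libraries numbered 2 (adjusted p = 0.0878) or 3 (0.149). In the trend-removed fit Ube2v2 was at -0.08 (adjusted p = 0.425), Ube2v1 at 0.28 (adjusted p = 0.000263) and Ube2n at 1.02 (adjusted p = 1.72e-09). Ube2v1 shares 92.2% of its 31-base words with other genes, mostly with the provisional gene Gm20431, whose counts were 3% of its own.

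Among the E2s of DNA damage tolerance and repair, Ube2a and Ube2t rose and Ube2b was not called. Ube2a and Ube2b are the mouse homologs of yeast Rad6, which act with Rad18 on PCNA and with other ligases on histone H2B. Ube2a had 81.8, 86.1 and 85.2 CPM in eluates and 53.6, 53.8 and 56.8 CPM in pellets. It did not overlap and rose by 0.62 ± 0.076 (adjusted p = 6.09e-06), and it stood at 0.73 in the trend-removed fit. Ube2b had 79.1, 80.8 and 71.5 CPM in eluates and 79.9, 95.3 and 91 CPM in pellets. Its groups overlapped through pellet 1, with a change of -0.20 ± 0.085 (adjusted p = 0.0548). Without pellet 1 it was called lower, at -0.28 (adjusted p = 0.00121).
Ube2t, the E2 of the Fanconi anaemia pathway, had 54.3, 50 and 46.5 CPM in eluates and 35, 45.1 and 44.6 CPM in pellets. The lowest eluate was just above the highest pellet. Its change of 0.28 ± 0.11 (adjusted p = 0.0376) was not called without eluate 1 (0.162), eluate 2 (0.0824) or pellet 1 (0.116), nor in the trend-removed fit (0.17, adjusted p = 0.115).

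The E2s that serve many ligases, namely the Ube2d and Ube2e groups, Ube2l3 and Ube2w, gave 4 higher, none lower and 4 not called of 8 tested. Over all tested genes the shares were 24.5% higher and 28.2% lower. For genes with a coding length of at most 1000 nt they were 42.4% and 11.7%. Ube2d3 was the most abundant of them per length, at 449 ± 6.39 TPM in eluates and 382 ± 18.3 TPM in pellets. Ube2d3 shares 52.3% of its 31-base words with other genes, most of them with Spopl, whose counts were 3.76% of those of Ube2d3. It had 591, 611 and 605 CPM in eluates and 514, 568 and 552 CPM in pellets. The groups did not overlap, but the change was small, at 0.15 ± 0.064 (adjusted p = 0.0662, voom 95% interval 0.02 to 0.27), and it was called only without pellet 2 among the fits that leave out 1 library (0.18, adjusted p = 0.0427). Ube2d1 had 41.4, 41 and 49.6 CPM in eluates and 32.6, 34 and 32.5 CPM in pellets, and rose by 0.41 ± 0.098 (adjusted p = 0.00234). Ube2d2a had 228, 244 and 250 CPM in eluates and 199, 205 and 205 CPM in pellets, and rose by 0.25 ± 0.065 (adjusted p = 0.00462). Neither overlapped.
In the Ube2e group, whose proteins add an N-terminal extension to the core domain, Ube2e3 rose by 0.48 ± 0.078 (adjusted p = 9.81e-05). It had 92.6, 85.9 and 85.3 CPM in eluates and 67, 59.9 and 62.1 CPM in pellets, without overlap. Ube2e1 had 56.8, 58.9 and 61.1 CPM in eluates and 56.5, 65.1 and 66.9 CPM in pellets. Its groups overlapped, with a change of -0.09 ± 0.085 (adjusted p = 0.383, voom 95% interval -0.27 to 0.10). It shares 67.8% of its 31-base words with other genes, most of them with Nkiras1, so its level is uncertain. Ube2e2 was scarce, at 7.32, 5.82 and 8.51 CPM in eluates and 5.83, 4.96 and 4.68 CPM in pellets. Its groups overlapped narrowly (0.48 ± 0.2, adjusted p = 0.0515), and it was called without eluate 2 (adjusted p = 0.0254) or without pellet 1 (0.0236).
Ube2l3, which passes ubiquitin to ligases that take it on a cysteine of their own, had 292, 310 and 326 CPM in eluates and 264, 273 and 246 CPM in pellets. It rose by 0.24 ± 0.068 (adjusted p = 0.00668) without overlap. Ube2w, which attaches ubiquitin to protein N termini, was not called at -0.12 ± 0.096 (adjusted p = 0.32, voom 95% interval -0.32 to 0.08). In the trend-removed fit Ube2d3 was at 0.70 (adjusted p = 8.81e-10) and Ube2w at 0.56 (adjusted p = 5.02e-05), both called there, and Ube2e3 was at 0.74.

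Of 6 E2s that extend degradative chains or act at the endoplasmic reticulum (ER), 3 rose, 1 fell and 2 were not called. Over all tested genes, 24.5% were higher and 28.2% lower, and over those with coding lengths to 1000 nt, 42.4% and 11.7%. Ube2j1 and Ube2j2 are anchored in the ER membrane and Ube2g2 works with ER ligases to mark misfolded proteins for the proteasome. Ube2j1 had 25.1, 28.8 and 27.8 CPM in eluates and 22.2, 18.9 and 19.4 CPM in pellets, and rose by 0.44 ± 0.11 (adjusted p = 0.00443). Ube2j2 had 102, 105 and 103 CPM in eluates and 77.5, 74.4 and 81 CPM in pellets, and rose by 0.42 ± 0.072 (adjusted p = 0.000162). Ube2g2 had 85, 89.5 and 87.2 CPM in eluates and 78.1, 68.7 and 67.6 CPM in pellets, and rose by 0.29 ± 0.079 (adjusted p = 0.0063). None of the 3 overlapped.
Ube2g1, which extends chains with cullin ligases, fell. It had 95.1, 96.1 and 97.8 CPM in eluates and 109, 120 and 117 CPM in pellets. Every eluate was below every pellet, for a change of -0.26 ± 0.07 (adjusted p = 0.00517). Ube2r2, a relative of Cdc34, had 67.8, 75.2 and 70.2 CPM in eluates and 64.9, 70.6 and 59.6 CPM in pellets, which overlapped (0.12 ± 0.084, adjusted p = 0.231, voom 95% interval -0.06 to 0.31). Ube2k, which can build chains without a ligase, was at 0.12 ± 0.07 (adjusted p = 0.18, voom 95% interval -0.04 to 0.27). In the trend-removed fit Ube2g1 was called in the other direction, at 0.51 (adjusted p = 1.26e-06), Ube2k was called higher at 0.65 (adjusted p = 3.26e-09), and Ube2g2 (-0.08, adjusted p = 0.374) and Ube2j2 (0.11, adjusted p = 0.187) were no longer called.

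The remaining 6 tested members include those with the longest reading frames, and 1 rose, 2 fell and 3 were not called. Among all tested genes, 24.5% were higher and 28.2% lower. Ube2o, a large protein that combines E2 and ligase activity and removes unassembled ribosomal proteins, has a coding length of 3864 nt. It had 52.9, 44.4 and 41.4 CPM in eluates and 67.7, 49.8 and 55.4 CPM in pellets. The groups overlapped, because eluate 1 was above pellet 2, and the change was -0.31 ± 0.12 (adjusted p = 0.0414). The call was lost without eluate 2 (adjusted p = 0.124), eluate 3 (0.168), pellet 1 (-0.18, adjusted p = 0.0974) or pellet 3 (0.0702), but the trend-removed fit gave -0.53 (adjusted p = 1.84e-05).
Ube2q2, of a subfamily with long N-terminal regions, had 44.6, 54.4 and 52.8 CPM in eluates and 61.2, 79 and 76.3 CPM in pellets. It did not overlap and fell, at -0.51 ± 0.11 (adjusted p = 0.000882). Its relative Ube2q1 had 149, 168 and 165 CPM in eluates and 130, 131 and 139 CPM in pellets, and rose by 0.27 ± 0.072 (adjusted p = 0.00447). Ube2z, which takes ubiquitin from the E1 Uba6, was not called (0.11 ± 0.068, adjusted p = 0.205), though it was without pellet 1 (0.17, adjusted p = 0.0139). Ube2h, the E2 of the CTLH ligase, was at 0.05 ± 0.085 (adjusted p = 0.656, voom 95% interval -0.13 to 0.23). Ube2cbp, whose symbol fits the family pattern although its product is described as a ligase that binds E2s, was at 0.41 ± 0.26 with a mean of 3.79 CPM in eluates and 2.82 in pellets (adjusted p = 0.2).

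The 5 members that were not tested had almost no reads. Ube2dnl2 and Ube2u had 0 counts in all 6 libraries, which allows at most 3 counts of 58513926, or 0.0513 CPM, counting error only. Ube2d2b had 1 count over the eluates and 0 over the pellets, Ube2dnl1 5 over eluates and 3 over pellets, and Ube2ql1 10 over eluates and 3 over pellets. Ube2dnl1, Ube2dnl2 and Ube2d2b are relatives of the Ube2d group.

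Close relatives were also compared with each other within each library. The log2 ratio of the 2 genes of a pair was compared between groups for 12 pairs by a two-sided exact permutation test. Of these, 8 pairs did not overlap between groups and gave a permutation p = 0.1, the smallest the design allows (0.15 adjusted over the 12 pairs). So no pair can pass a threshold of 0.05. Among all single genes, every eluate was above every pellet in 29.1% and below in 31.2%. Ratios of other gene pairs were not counted, so whether 8 of 12 is unusual was not tested.
With the counts as deposited, the largest difference among the 12 pairs was that of Ube2v1 to Ube2v2. Its log2 value was 2.82, 2.58 and 3.09 in eluates and 1.83, 1.02 and 0.92 in pellets, a difference of 1.57, and 1.86 without pellet 1. Their proteins are 86.2% identical, and their transcripts have 54.9% GC in Ube2v1 and 37% GC in Ube2v2. The compared Ube2v2 reading frame (435 nt) held 24.9% to 32% of its gene's counts. A 309-nt frame held 52.1% to 61.6%. The Ube2a to Ube2b ratio was 0.05, 0.09 and 0.25 in eluates and -0.57, -0.82 and -0.68 in pellets, a difference of 0.82. That pair is 95.4% identical (145 of 152 residues) and uses different codons at 82 of the 145 shared residues. Transcript GC was nearly the same, at 44.7% for Ube2a and 43.6% for Ube2b, but other features differed. The compared frames are 48.2% GC in Ube2a and 44.5% in Ube2b, and transcripts average 1092 nt and 1538 nt. The compared Ube2a frame (456 nt) held 28% to 47.6% of its counts, and a 357-nt frame held 40.8% to 53.9%. Which feature goes with the difference was not tested.
The Ube2q1 to Ube2q2 ratio differed by 0.78, with 1.73, 1.63 and 1.65 in eluates and 1.08, 0.72 and 0.86 in pellets, for proteins that are 75.8% identical. The Ube2m to Ube2f ratio differed by 0.53, with values of 1.48, 1.23 and 1.1 in eluates and 0.92, 0.57 and 0.74 in pellets. The ratio of Cdc34, an E2 of cullin ligases with another name, to Ube2r2 differed by 0.38 and that of Ube2d1 to Ube2d3 by 0.26. The last pairs without overlap moved down, at -0.57 for Ube2e1 to Ube2e3 and -0.55 for Ube2g1 to Ube2g2.
The other 4 pairs overlapped. Ube2d2a to Ube2d3, whose proteins are 97.3% identical, differed by 0.10 (exact permutation p = 0.2), Ube2j1 to Ube2j2 by 0.02 (p = 0.9), Ube2e2 to Ube2e3 by -0.01 (p = 1) and Ube2l3 to Ube2l6 by -0.16 (p = 0.7). With the GC and length trend removed, the differences were 0.59 for Ube2g1 to Ube2g2, -0.30 for Ube2m to Ube2f, -0.42 for Cdc34 to Ube2r2 and -0.22 for Ube2d1 to Ube2d3, which are the 4 of the 8 pairs that turned direction. Ube2v1 to Ube2v2 kept its direction at 0.36, and was no longer the largest: Ube2j1 to Ube2j2 was at 0.74, Ube2a to Ube2b at 0.68, Ube2e1 to Ube2e3 at -0.67, Ube2q1 to Ube2q2 at 0.55 and Ube2e2 to Ube2e3 at -0.52. Ube2d2a to Ube2d3 was at -0.19 and Ube2l3 to Ube2l6 at 0.16.

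**Figure D2:**
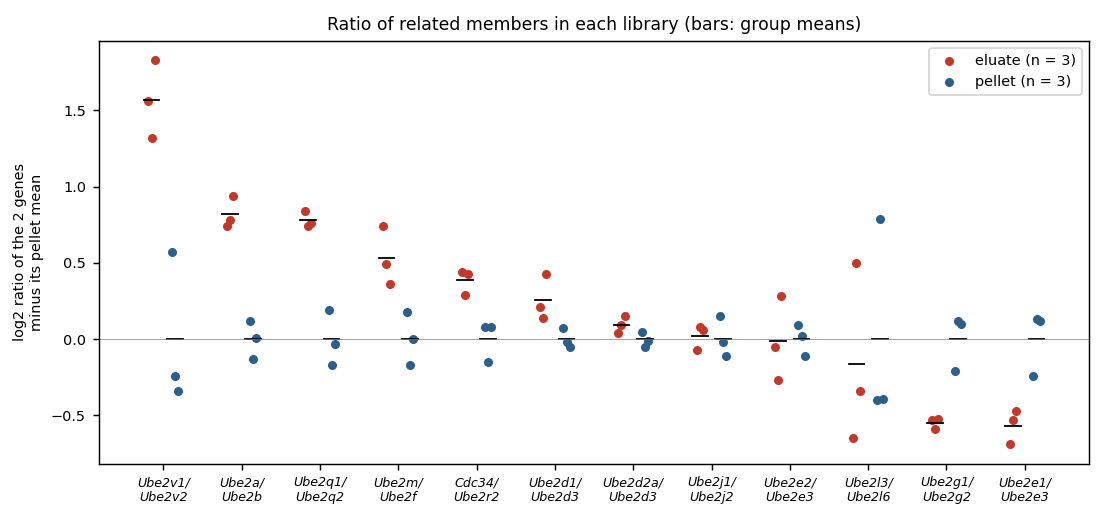
Log2 ratio of the CPM of 2 related genes in each library, minus the mean of that ratio over the pellets. Red points are the 3 eluates, blue points the 3 pellets, and bars are group means. With the counts as deposited, Ube2v1/Ube2v2 stands highest at 1.57, and Ube2e1/Ube2e3 lowest at -0.57.

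The family is short in reading frame and, to a lesser degree, in transcript. Transcripts had a median of 2018 nt in the tested members, against 2762 nt for all genes. The median coding length of the tested members was 549 nt, against 1353 nt for all 12208 tested coding genes, and 31 of 32 members were under that value. The coding part made up a median of 29.5% of the transcript, against 53.6% for all genes. Transcript GC ran from 37% (Ube2v2) to 63% (Ube2m) with a median of 47.7%, against 50.8% for all genes. Across all tested genes the log2 change correlated with transcript GC at Spearman's rho = 0.71 and with coding length at -0.42. Across the 32 members these were 0.47 and -0.05, and with transcript length -0.56, against -0.43 for all genes. These are descriptions across genes from the same 6 libraries, and genes are not independent replicates.
Among genes with a coding length of at most 1000 nt, 16 of 27 members were higher and 2 lower, with a median of 0.28. Of all 4063 such genes, 42.4% were higher and 11.7% lower, with a median of 0.25. Several members of low GC, among them Ube2n (40.7% GC) and Ube2a (44.7% GC), were higher in eluates. All tested genes had medians of -0.94, -0.56 and -0.37 in the 3 bins of lowest GC, whose median GC was 40.3%, 43.7% and 46%.

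**Figure D3:**
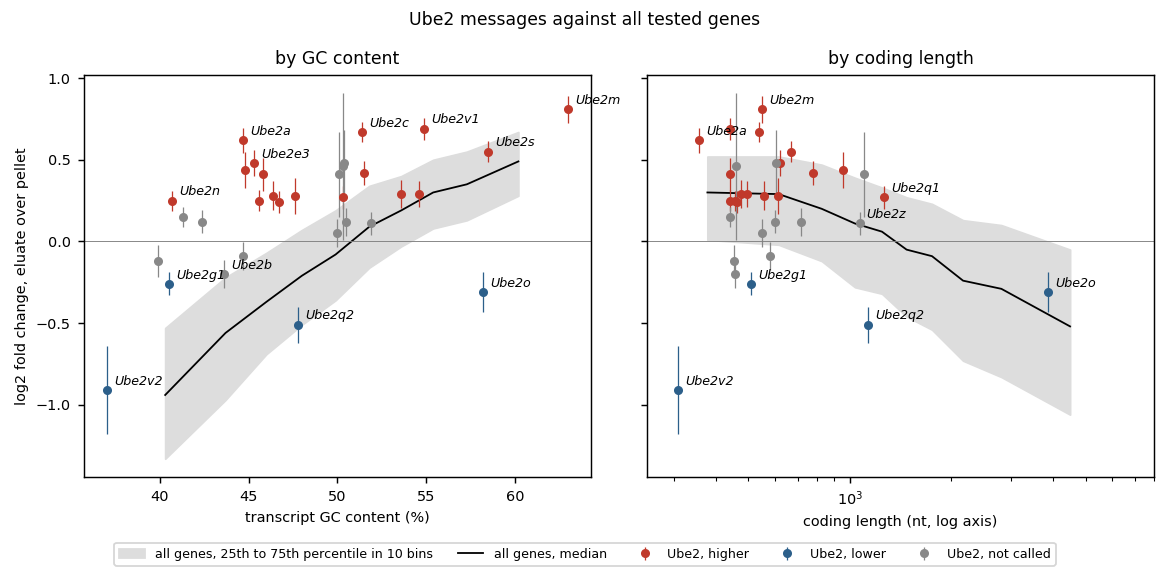
Log2 fold change of eluate over pellet against transcript GC content (left) and coding length (right, log axis). Points are the 32 tested Ube2 genes with their SE, coloured by call, the black line is the median of all tested genes in 10 bins and the grey band runs between their 25th and 75th percentiles. Ube2n, Ube2a and Ube2e3 lie above the band at low GC, and Ube2o lies below it at 58.2% GC.

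Removing the library trends changed which members were called more than how many. In the trend-removed fit 15 members were higher and 3 lower, against 12.5% and 22.4% of all genes. The median member was at 0.24, with all genes at -0.07. Of the 21 called members, 13 kept their call and direction, 6 lost the call (Ube2m, Ube2s, Ube2j2, Ube2g2, Ube2t and Ube2v2), and 2 were called in the other direction, Ube2g1 among them. Ube2d3, Ube2k and Ube2w were called in addition. Where the trend in GC alone was removed, 20 members were higher and 2 lower, against 15.7% and 24.8% of all genes. Where GC and coding length were used, in an alternative added once the data had been seen, 12 were higher and 8 lower, against 9.47% and 22.2%, with a member median of 0.14.

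**Figure D4:**
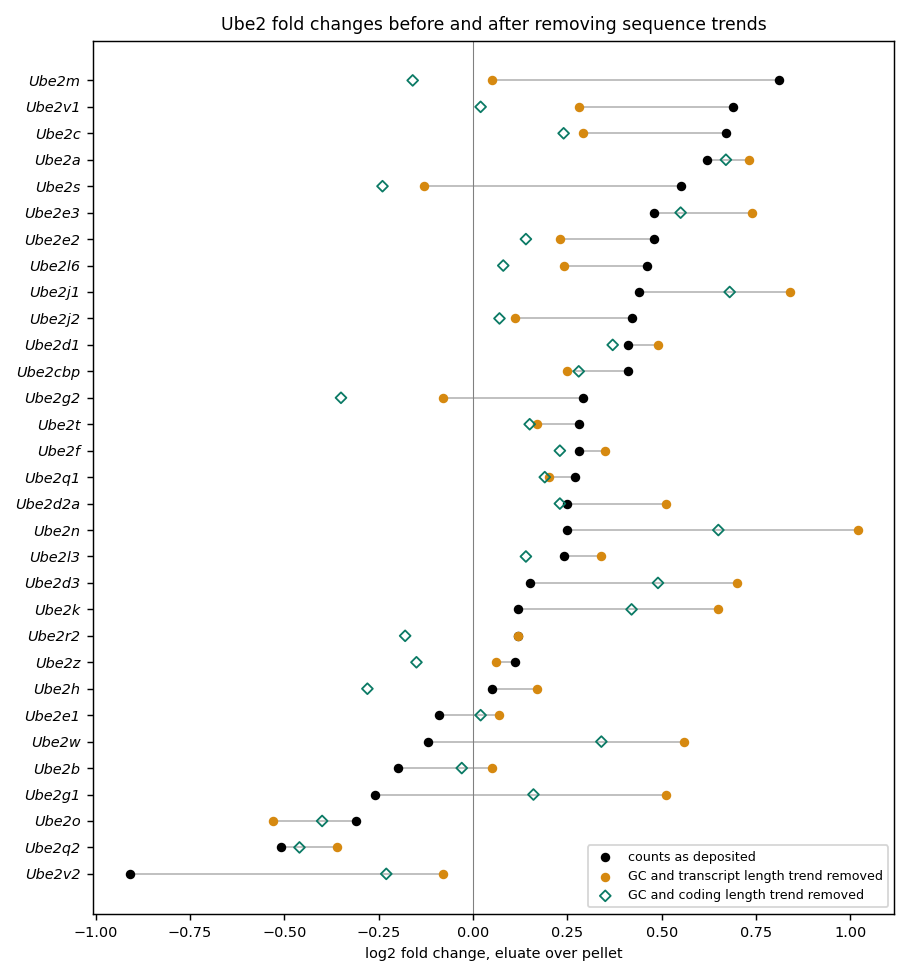
Log2 fold change of eluate over pellet for 31 of the 32 tested Ube2 genes in 3 fits. Black points use the counts as deposited, orange points have each library's trend in GC and transcript length removed, and green diamonds have the trend in GC and coding length removed. Ube2n moves to 1.02 and Ube2g1 to 0.51 in the transcript length fit, while Ube2m moves to 0.05.

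Most transcript forms kept overlapping shares of their gene's counts in eluates and pellets. For each member the forms with at least 10% of the gene's counts in a group were compared by their share of those counts. Of 48 forms compared, 44 overlapped, 3 had a smaller share in every eluate than in any pellet and 1, of Ube2w, had a larger one. Many of these were the only form listed for their gene. Such forms mostly held nearly all of its counts in every library, so their overlap was largely fixed in advance. In 12 genes with several listed forms there were 28 forms, 3 of them below and none above. These 3 were the longest listed form of their gene. Forms of all other genes were not counted in this way, so whether this is particular to the family was not tested. For the 4893-nt form of Ube2k the shares were 44.2%, 43.7% and 44.2% in eluates and 50.4%, 51.4% and 46.1% in pellets. For the 3833-nt form of Ube2d3 they were 19.5%, 18.5% and 19.7% in eluates and 21.6%, 22.4% and 22.3% in pellets. For the 5654-nt form of Ube2f they were 11.3%, 10.4% and 12.2% in eluates and 13.2%, 14.3% and 17.3% in pellets. The coding length is the same in the 3 listed Ube2d3 forms, and their coding sequences were not compared.
A shorter form of Ube2m, with a reading frame of 258 nt, took 0%, 11.8% and 21.7% of its counts in eluates and 0%, 5.71% and 2.06% in pellets, which overlapped and varied widely within the eluates. In Ube2v2 all 3 forms were lower, between -0.79 and -1.02 on the log2 scale. These shares are estimates that divide reads among overlapping forms, and no test was run on them.

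The rest of the ubiquitin pathway was described in 6 lists with 82 tested genes, whose medians ran from -0.40 to 0.23, against 0.27 for the family. Counts are given beside the same background of 24.5% higher and 28.2% lower among all genes, and no list was compared with the family by a test. Of 8 tested E1 genes, 1 was higher, 5 were lower and 2 were not called, with a median of -0.40. Uba3, the catalytic subunit of the NEDD8 E1, fell to 63.8 ± 0.914 CPM in eluates, against 120 ± 19.9 in pellets (SD, n = 3 each; -0.91 ± 0.1, adjusted p = 8.34e-06). Sae1, of the SUMO E1, rose by 0.38 ± 0.068 (adjusted p = 0.000236), while its partner Uba2, the most abundant of the list in counts, was at -0.42 ± 0.061 (adjusted p = 3.49e-05).
Of 13 tested genes for ubiquitin and ubiquitin-like proteins, 7 were higher, 2 lower and 4 not called, with a median of 0.23. Fau, which encodes a ubiquitin-like protein fused to a ribosomal protein, was at 1497 ± 42.8 CPM in eluates and 1007 ± 21.6 in pellets (0.57 ± 0.062, adjusted p = 2.06e-06). Ubb, a polyubiquitin gene and the highest in counts, was at 0.49 ± 0.079 (adjusted p = 0.000108). The 8 E2s and variants with other names gave 3 higher, 3 lower and 2 not called, with a median of -0.17. Cdc34 had 452, 454 and 466 CPM in eluates and 338, 314 and 311 CPM in pellets and rose by 0.51 ± 0.063 (adjusted p = 6.85e-06). Birc6, a giant E2 with a reading frame of 14619 nt, was at -1.45 ± 0.11 (adjusted p = 1.81e-07).

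The 3 ligase lists had medians below 0. Of 16 APC/C genes, 5 were higher, 7 lower and 4 not called, with a median of -0.10, although both E2s that serve the complex rose. Anapc11, its small RING subunit, was at 0.69 ± 0.064 (adjusted p = 5.69e-07), Anapc5, the highest in counts, at 0.37 ± 0.067 (adjusted p = 0.000256), and Anapc4, a scaffold subunit, at -1.41 ± 0.11 (adjusted p = 1.19e-07). Of 15 genes of the cullin ligase core, 2 were higher, 9 lower and 4 not called, with a median of -0.37. Elob, an adaptor subunit, was at 0.70 ± 0.064 (adjusted p = 4.84e-07), Cul2 at -1.24 ± 0.11 (adjusted p = 7.4e-07) and Ddb1, the highest in counts, at -0.35 ± 0.074 (adjusted p = 0.000883).
Of 22 other ligase genes, 6 were higher, 12 lower and 4 not called, with a median of -0.33. Stub1, a chaperone-bound ligase, was at 0.69 ± 0.078 (adjusted p = 3.12e-06) and Hltf, a ligase of DNA damage tolerance, at -1.95 ± 0.16 (adjusted p = 2.44e-07). Rnf4, the highest in counts, was at 0.20 ± 0.065 (adjusted p = 0.0177), not called without eluate 1 (0.0573), eluate 3 (0.0721) or pellet 3 (0.0932). The median coding length was 1758 nt for E1s, 1596 nt for the APC/C, 1953 nt for the cullin core and 1768 nt for other ligases. For the modifiers it was 330 nt. Of the named higher genes, Elob (0.09), Anapc11 (0.06), Stub1 (0.05), Ubb (0.04) and Fau (-0.12) were not called in the trend-removed fit. Sae1, Anapc5 and Rnf4 kept their call there, as did the named lower genes. In the trend-removed fit Cdc34 was called lower at -0.29, and the list medians were -0.25 for the cullin core, -0.23 for E1s, -0.14 for the APC/C, -0.03 for E2s with other names, 0.01 for the other ligases and 0.03 for the modifiers, against 0.24 for the family.

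**Figure D5:**
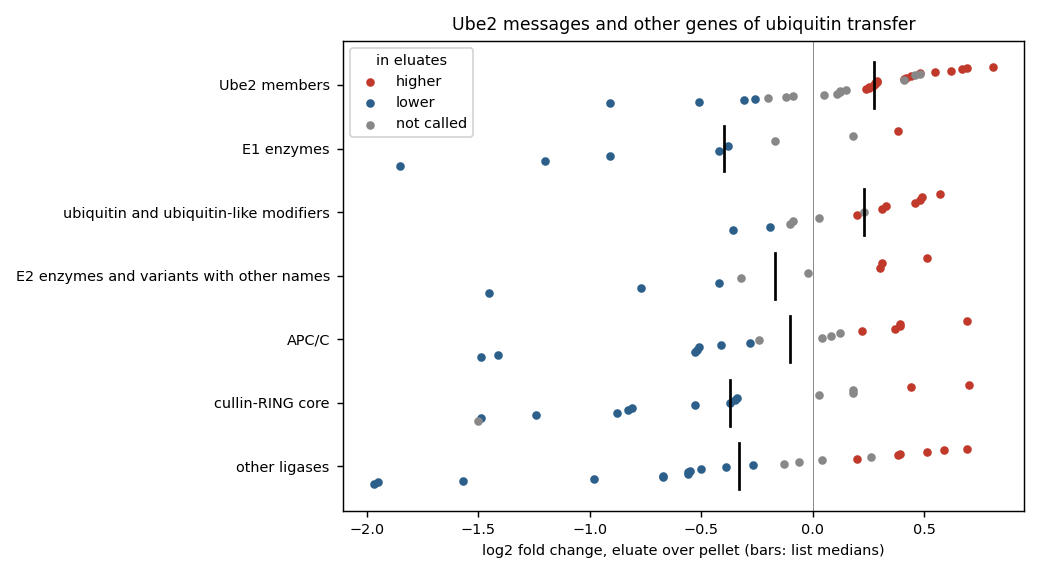
Log2 fold change of eluate over pellet for the 32 tested Ube2 genes and for 6 lists of other genes of ubiquitin transfer. Each point is a gene, coloured by its call in eluates, and black bars are medians. The family and the modifiers have medians of 0.27 and 0.23, while the E1s, the cullin core and the other ligases have medians of -0.40, -0.37 and -0.33.

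The authors' deposited table, which lists 4892 genes, held 20 of the family, 17 higher and 3 lower. How many of its 4892 genes were higher or lower was not counted. It held 18 of the 21 called members, and all 18 had the same sign there as here. That table compares the same eluates and pellets, so the shared signs are not independent support. Ube2g1, Ube2g2 and Ube2t, called here, were not in it, whereas it listed Ube2d3 at 0.32 (adjusted p = 9.88e-05) and Ube2k at 0.27 (adjusted p = 0.00553), which were not called here. Its mean counts were close to those of the matched transcripts for the listed members reported here, with ratios of 0.991 to 1.05.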

How the data were processed

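Poly(A) RNA of 3 resin eluates and 3 cushion pellets was analysed, grouped by the sample titles. Build GRCm39 and the tools Salmon 1.10.3, STAR 2.7.11b, cutadapt 4.7 and DESeq2 1.44.0 are named in the submitters' processing notes, without their order. For the annotation release and tool settings, nothing was given in the sources used here. The deposited Salmon files give, per the file headers, an estimated count and TPM per transcript, and the authors' deposited table gives mean normalized counts as a signal, log2 fold changes with standard errors, a test statistic as a score, and p-values.

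By transcript identifier, 76858 of 84226 transcripts were found in GENCODE mouse release 21 (75250 with the same length); the other 7368, with 1.63% to 2.35% of a library's counts, were left out. Estimated counts were summed per gene, rounded and tested with edgeR 4.0.16 in R 4.3.3 (quasi-likelihood fit, robust dispersion, TMM factors, default low-count filter, Benjamini-Hochberg adjustment, threshold 0.05). CPM use TMM-scaled library sizes, and the SE is the size of the change over the root of the F statistic. Intervals came from limma 3.58.1 (voom). Trends in count-weighted transcript GC and log length (splines, 5 degrees of freedom) were removed by offsets. Coding lengths are those of the transcript with the most counts. Protein identity used the longest complete reading frame among forms with at least 10% of a gene's counts. Near-identical copies can exchange reads in such estimates. DESeq2 1.42.0, other scalings and filters, a replicate block, TPM, coding transcripts only and left-out libraries were alternatives. Pair ratios used exact permutation tests. Python 3.11.15, pandas 2.3.3, numpy 2.4.6, Biopython 1.88 and matplotlib 3.10.9 were used.

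In a simulation of the eluate against pellet test over 13231 genes, the edgeR test recovered 74%, 94%, 100% and 98% of genes changed 1.5-, 2-, 3- and 4-fold, and 10 of 193 calls (5.18%) were false. Only 50 genes were changed at each fold, without a trend in GC or length, whereas 52.7% of genes were called in the data. Most called members changed by less than 1.5-fold, the smallest change simulated. These rates therefore need not hold for the members. Members, lists, role groups and tests were chosen with earlier results of these data known. Per-library values are given for the highest and lowest 5 called members, of which only 4 were lower, for the most abundant by TPM and for paired genes. A member and a list gene are counted in the totals and not reported here. In each list the called gene with the smallest p in each direction and the gene with the most counts are named.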

Additional observations from a re-analysis of the deposited data

How the results depend on the processing

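Ube2a, Ube2c, Ube2e3, Ube2v1 and Ube2q2 kept their direction and call in all 22 alternatives planned, and 8 called members did in the 9 fits that leave out libraries. In the GC and coding length fit, which was not among those planned, Ube2v1 lost its call (0.02, edgeR adjusted p = 0.839). Ube2a, Ube2c, Ube2e3 and Ube2q2 kept theirs there. Leaving out libraries gave 7 to 18 members higher and 1 to 5 lower, 15 to 28 pathway genes higher against 24, and 1949 to 3722 genes higher over all genes against 3241. With log2 TPM and limma 11 members were higher, and 1889 genes over all. Upper-quartile factors gave 1 member lower, the GC trend fit 2 and the GC and coding length fit 8. The GC and length fit gave 15 pathway genes higher, also with the replicate block, and the GC and coding length fit 12. Over all genes these fits gave 1650, 1656 with the block, 2076 for GC alone and 1156 for GC and coding length. The replicate numbers are not stated to pair samples, and same-numbered libraries correlated at 0.0698, 0.151 and -0.0102 in their deviations, so no pairing was assumed. The replicate block gave 18 members higher and 5 lower. The CPM filter kept the same number of genes and members called, so among the 22 alternatives it is not a separate check.

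Direction changed as follows, in the GC and length fit (the block version gave the same value), the GC fit and the GC and coding length fit. Ube2b was at 0.05 and 0.31 in the first of these and the GC fit, Ube2e1 at 0.07, 0.33 and 0.02, Ube2g1 at 0.51, 0.49 and 0.16, Ube2g2 at -0.08, -0.02 and -0.35, and Ube2w at 0.56, 0.68 and 0.34. Cdc34 was at -0.29, -0.14 and -0.42. With GC and length, then GC and coding length, Ube2s was at -0.13 and -0.24 and Fau at -0.12 and -0.35. In the GC fit Ube2v2 was at 0.14 and Ube2z at -0.05. With GC and coding length Ube2z was at -0.15, Ube2h at -0.28, Ube2m at -0.16, Ube2r2 at -0.18, Anapc11 at -0.12, Elob at -0.14 and Stub1 at -0.08. Ube2h was at -0.05 with log2 TPM and between -0.01 (without both libraries numbered 3) and 0.12 where libraries were left out. For pairs, removing the GC and length trend gave -0.22 for Ube2d1/Ube2d3, -0.19 for Ube2d2a/Ube2d3, 0.59 for Ube2g1/Ube2g2, 0.16 for Ube2l3/Ube2l6, -0.30 for Ube2m/Ube2f and -0.42 for Cdc34/Ube2r2, and TPM ratios gave -0.02 for Ube2d2a/Ube2d3 and 0.18 for Ube2e2/Ube2e3. These trend fits use reference features and remove any change that follows GC or length over all genes; the cause of the other changes was not tested. At these depths members under about 10 CPM, namely Ube2e2, Ube2cbp and Ube2l6, had wide intervals.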
